A study of Mus musculus with 17 samples.

Results

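The genes described here encode the machinery of oxidative phosphorylation. They were taken by symbol: every symbol that starts with Nduf, Uqcr, Cox4i, Cox5, Cox6, Cox7, Cox8 or Atp5, the symbols Sdha, Sdhb, Sdhc, Sdhd, Cycs and Cyc1, and every symbol that starts with mt-Nd, mt-Co, mt-Atp or mt-Cyt, with pseudogene symbols (those ending in -ps, or in ps and a digit) left out. This gave 108 of 52636 genes in the single-cell table, 95 of them nuclear and 13 mitochondrial (mt-), and 107 of 28692 genes in the spot table, 94 nuclear and 13 mt-; Ndufaf8 was the member found only in the single-cell table. The nuclear members comprised 36 subunits and 8 assembly factors of complex I, 4 subunits of complex II, 9 of complex III, 19 of complex IV, 15 of complex V, cytochrome c (Cycs), Cox7a2l, and 2 other Atp5-prefixed genes (Atp5s and Atp5sl). RNA had been counted in single cells picked by hand from acute brain slices of B6 mice, taken in the anterior thalamic nuclei (ATN), and in 3 Visium brain sections, 2 labelled postATN (sections 2 and 6) and 1 labelled antATN (section 5). All samples are wild type per the labels, which name no treatment and no age and do not say whether the 3 sections come from separate animals. The 904 cells kept came from 3 animals (103, 328 and 473 cells), and the 7827 spots were 2794, 2540 and 2493 in sections 2, 5 and 6.

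Oxidative phosphorylation couples the transfer of electrons along complexes I to IV of the inner mitochondrial membrane to the making of ATP by complex V. Most subunits are encoded in the nucleus and imported, whereas a small set of core subunits of complexes I, III, IV and V is encoded by mitochondrial DNA, which is transcribed separately inside the organelle. Neurons rely on this route for most of the ATP that restores their ion gradients, and several subunits of complex IV exist as alternative isoforms, some of them best known from heart and skeletal muscle.

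The animals and sections differed in depth. Summed counts per animal were 6264778, 3221635 and 29648927, with a median per cell of 49798, 8845 and 50474 in animals 1, 2 and 3, and summed counts per section were 26032042, 13788407 and 18582120 in sections 2, 5 and 6. Cells were grouped by expression with the members and all other mt- symbols left out of the genes used for grouping. This gave 4 clusters of neurons, named by their markers C1ql2 (43 cells: 6, 10 and 27 per animal), Calb2 (148), Car4 (454) and Tnnt1 (232), and 27 cells that carried oligodendrocyte markers. The summed level of the 10 thalamic glutamatergic markers was 1835 to 4881 CPM (counts scaled to 1000000 per sum) in the neuron clusters, with at least 9 of the 10 genes counted in each; it was lowest in the C1ql2 cluster, where Ramp3 was at 0. The Calb2 cluster also held GABA neuron markers (237 to 1217 CPM over 8 genes, Vip at 0) and habenular markers (313 to 601 CPM over 4 genes, Calb2 among them), and in the C1ql2 cluster pericyte or smooth muscle markers ranged from 2.84 to 1191 CPM (5 of 6 genes, Kcnj8 at 0). Their part in the results was not tested. Visium slides carry one set of position barcodes, and 1252 barcodes were present in all 3 sections.

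Not every member could be measured in both tables. In the single-cell table mt-Co2 had 0 counts, mt-Nd3 1, mt-Nd4l 28 and mt-Co3 65 over all kept cells, against 865583, 181164, 17831 and 1035489 counts in the spots. The gap was smaller but large for mt-Atp6 (1708 against 990967) and mt-Co1 (12123 against 1157116), and it included the nuclear gene Atp5g2, 1 of 3 genes for the same c subunit of complex V (27 against 11594). How reads that match several places in the genome were counted is not given in the sources used here, so the level of these genes in cells is uncertain and their low counts are not read as low expression. Members had to pass a filter on low counts to be tested: 89 of 95 nuclear and 9 of 13 mt- members did so in the cells, and 86 of 94 and 13 of 13 in the thalamic spots.

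The summed share of nuclear members separated the neuron clusters, and the share of mt- members did not follow it. Nuclear members made up 4.93%, 5.14% and 5.23% of all counts in the C1ql2 cluster of animals 1, 2 and 3 (mean 5.10% ± 0.15, SD, n = 3), and 3.46%, 3.45% and 3.33% in the Calb2 cluster. In the Car4 cluster they were 2.89%, 2.86% and 2.93%, and in the Tnnt1 cluster 2.19%, 1.67% and 1.88% (mean 1.91% ± 0.26, SD, n = 3). The order C1ql2, Calb2, Car4, Tnnt1 was thus the same in each animal, and no value of 1 cluster overlapped that of another. The C1ql2 cluster was above each of the other clusters on 12 of 12 plates with kept cells, with 1 to 7 of its cells per plate, and the Tnnt1 cluster was below each of the others on 12 of 12. The Calb2 cluster was above the Car4 cluster on 10 of 12 plates. The plates hold the same cells of the 3 animals and are not further replicates.

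The 13 mt- members together held 0.360%, 1.35% and 1.21% of counts in the C1ql2 cluster, 0.620%, 1.14% and 1.13% in the Calb2 cluster, 0.807%, 1.56% and 1.40% in the Car4 cluster, and 0.727%, 1.55% and 1.33% in the Tnnt1 cluster. Over all kept cells most mt- counts came from mt-Cytb (309781) and mt-Nd1 (94505), so these shares describe mainly those 2 genes. Animal 1 was low in all 4 clusters, and across animals the clusters overlapped. Within each animal, however, the C1ql2 and Calb2 clusters lay below the Tnnt1 cluster, and this below the Car4 cluster, while C1ql2 was below Calb2 in animal 1 and above it in animals 2 and 3. The C1ql2 cluster was above the Calb2 cluster on 8 of 12 plates, but above the Car4 cluster on 2 and above the Tnnt1 cluster on 3. Within a cluster and animal, the nuclear and mt- shares of single cells were weakly related (Spearman's rho between -0.30 and 0.33 in the 12 groups, a description over cells of 1 library set that share depth). The oligodendrocyte cells are described by values only, because animal 1 gave 2 of them.

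**Figure D1:**
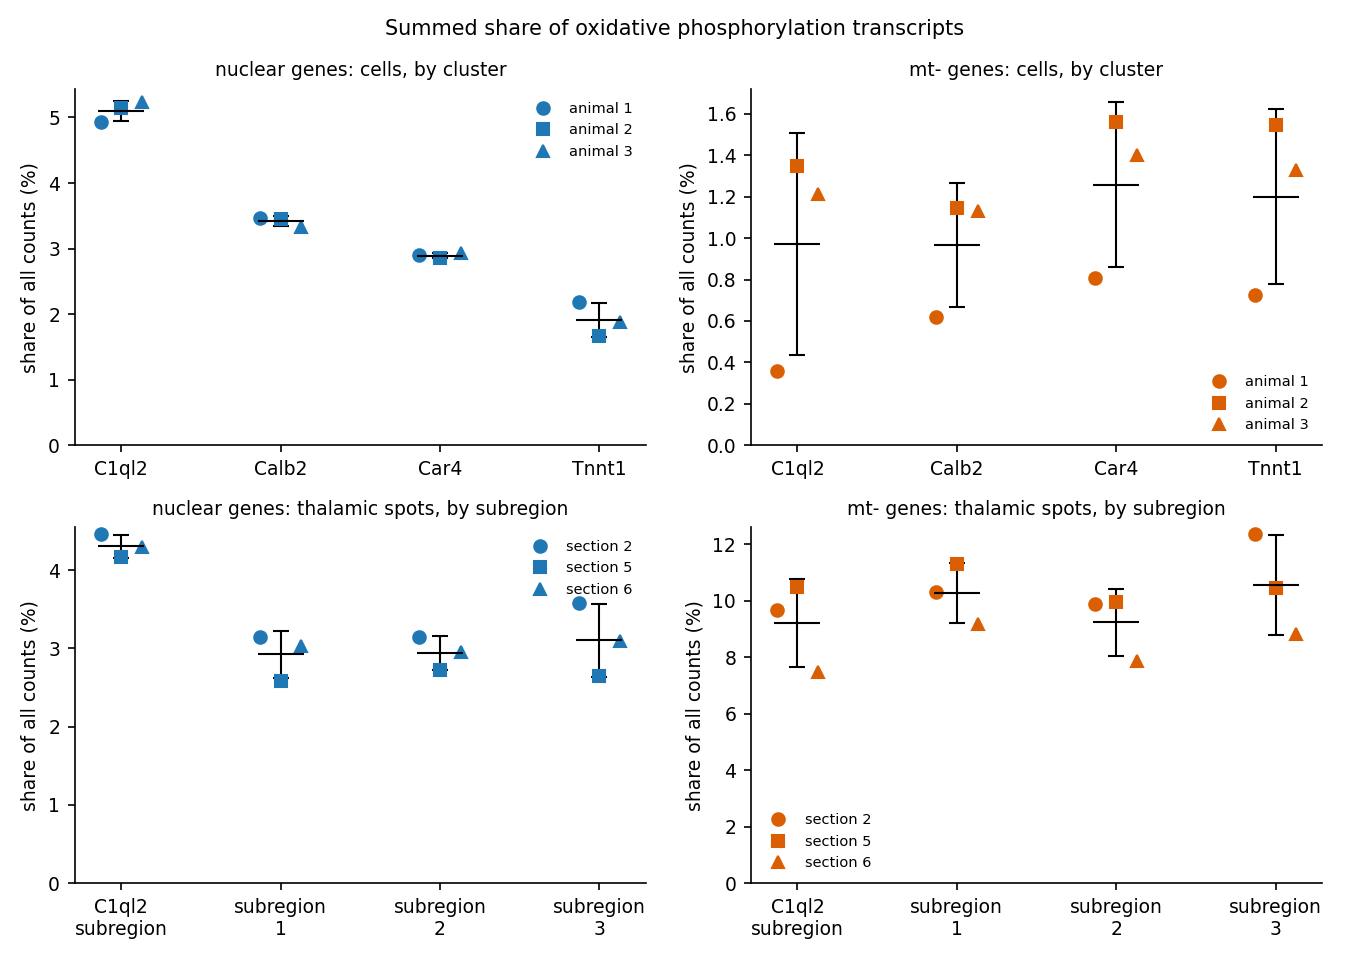
Share of all counts (%) held by nuclear (left) and mt- members (right), for the 4 neuron clusters in animals 1 to 3 (upper row) and for the C1ql2 subregion and 3 other subregions of the thalamic spots in sections 2, 5 and 6 (lower row). Points are animals or sections, and bars show the mean and SD (n = 3). The C1ql2 points are highest for nuclear members in both rows (4.93% to 5.23% in cells, 4.17% to 4.46% in spots), and no such separation is seen for mt- members.

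Depth moved with the clusters. The median cell of the C1ql2 cluster had 111140 counts, against 28108 in Calb2, 23874 in Car4 and 28718 in Tnnt1 cells, and within each cluster and animal deeper cells had a larger nuclear share (rho between 0.38 and 0.71). Among cells of overlapping depth within each animal, the median nuclear share per cell was 4.55%, 5.16% and 5.08% in C1ql2 cells of animals 1, 2 and 3, and 3.35%, 3.53% and 3.16% in Calb2 cells. It was 3.12%, 2.90% and 2.67% in Car4 cells and 2.34%, 1.76% and 1.74% in Tnnt1 cells. This subset did not equalise depth: the C1ql2 medians were 115960, 17598 and 129500 counts in animals 1, 2 and 3, against 76092 to 110440, 10056 to 11779 and 48972 to 62255 in the other clusters. Signs of RNA content differed between the clusters as well. The 8 nuclear-retained RNAs (Malat1, Meg3 and the like) held 5.65%, 4.04% and 4.20% of counts in the C1ql2 cluster and 5.60%, 4.05% and 4.36% in the Calb2 cluster. They held 6.95%, 6.03% and 6.68% in the Car4 cluster and 6.61%, 7.33% and 7.001% in the Tnnt1 cluster. The mitochondrial ribosomal RNAs held 1.40%, 1.50% and 1.47% in C1ql2 and 1.26%, 1.13% and 1.06% in Calb2 cells. In Car4 cells they held 1.83%, 2.08% and 1.77%, and in Tnnt1 cells 1.58%, 3.27% and 2.37%. Cytosolic ribosomal protein genes held 0.817%, 0.822% and 0.904% in C1ql2 cells, close to the 0.916%, 0.771% and 0.812% of Calb2 cells, and 0.513%, 0.369% and 0.434% in Tnnt1 cells. The part of these differences in the member results was not tested.

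Against the mean of the other neuron clusters, 56 of 89 nuclear members rose in the C1ql2 cluster, 1 fell and 32 did not pass (edgeR's quasi-likelihood test on counts summed per animal, animal as block, adjusted p under 0.05 over 11951 genes). Of all genes tested, 5.2% rose and 5.03% fell. The log2 difference was above 0 for 85 of the 89, with a median of 0.95, while the median of all genes was -0.19. For 40 of the 89 nuclear members, the C1ql2 value in each animal was above each value of the other clusters, against 3.27% of all genes and 0 of 9 mt- members. Leaving out animal 1, 2 or 3 gave 73, 38 or 28 risen members, the last without the animal that held 27 of the 43 cells, and the count was 48 among cells of overlapping depth.

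**Figure D2:**
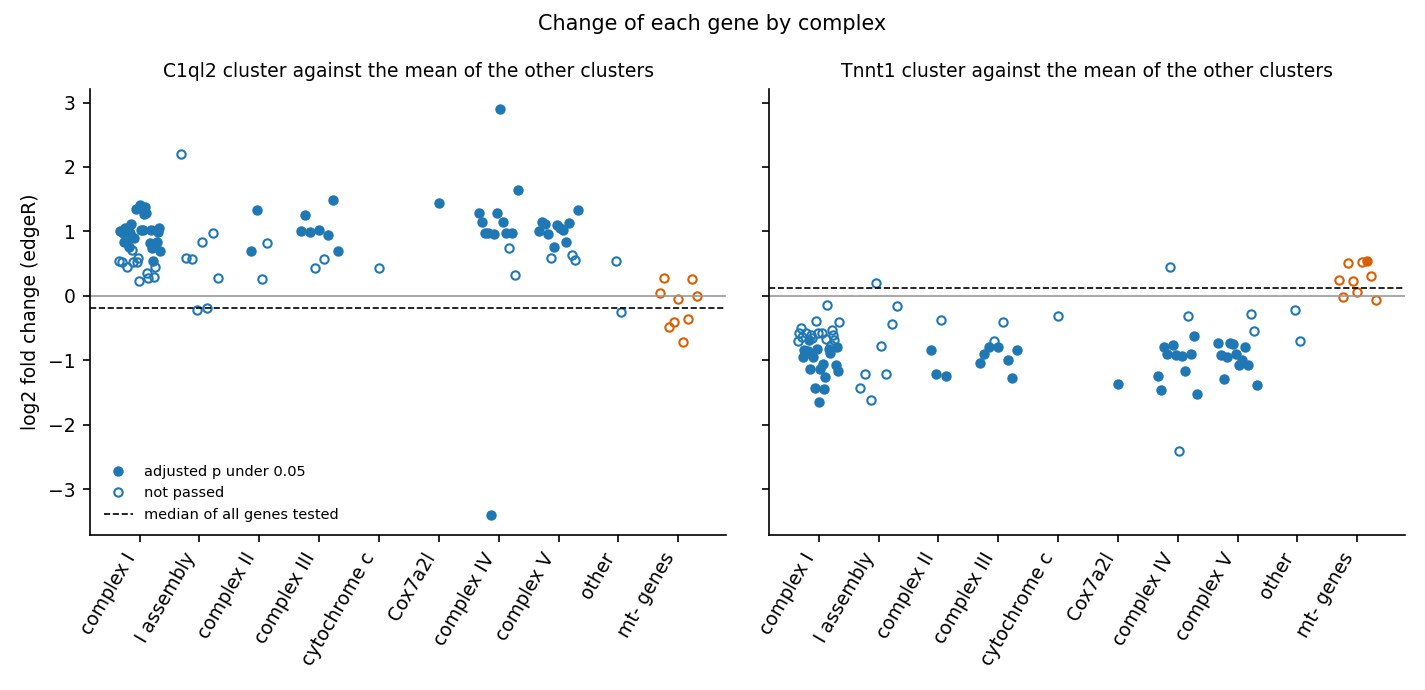
Log2 difference (edgeR) of each tested member in the C1ql2 cluster (left) and in the Tnnt1 cluster (right) against the mean of the other neuron clusters, arranged by complex, with nuclear genes in blue and mt- genes in orange. Filled points passed at adjusted p under 0.05, and the dashed line is the median of all genes tested (-0.19 and 0.12). Complexes I to V lie mostly above 0 on the left and below 0 on the right, and mt- genes lie around 0 in both.

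All complexes contributed to this rise. In complex I, which takes electrons from NADH, 24 of 36 subunits rose. Ndufb5, an accessory subunit of its membrane arm, was at 856, 723 and 759 CPM in C1ql2 cells of animals 1, 2 and 3. It was at 419, 500 and 463 CPM in Calb2, 375, 379 and 372 in Car4, and 115, 157 and 219 in Tnnt1 cells, with no overlap between clusters (log2 difference 1.41, SE 0.16, adjusted p = 8.4e-05, edgeR). Ndufb8 (1.26, SE 0.14) and Ndufb9 (1.37, SE 0.17) were the next by adjusted p. Of the 12 subunits of complex I that did not pass, Ndufs1, which holds iron-sulphur clusters of the peripheral arm, was at 0.27 (SE 0.24) and Ndufb4 at 0.23 (SE 0.53). None of the 8 assembly factors passed, and 2 of them had an unadjusted p under 0.05. The largest difference among them, Ndufaf1 at 2.20 (SE 0.75), had an adjusted p of 0.081.

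Complex II, which links the tricarboxylic acid cycle to the chain, had 2 of 4 subunits risen. Sdhb, its iron-sulphur subunit, was at 391, 392 and 440 CPM in C1ql2 cells and at 82.3, 132 and 124 in Tnnt1 cells. The Calb2 values, 277, 260 and 274, lay above the Car4 values, 126, 172 and 177 (C1ql2 against the others 1.33, SE 0.17, adjusted p = 0.00020, edgeR). The flavoprotein gene Sdha rose less (0.69, SE 0.17), and Sdhd and Sdhc did not pass (0.82 and 0.26).

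In complex III, which passes electrons from ubiquinol to cytochrome c, 7 of 9 subunits rose. Uqcrh, its hinge subunit, was at 843, 594 and 651 CPM in C1ql2 cells against 278 to 363 in Calb2, 288 to 322 in Car4 and 146 to 194 in Tnnt1 cells (1.49, SE 0.15, adjusted p = 4.0e-05, edgeR). Uqcr10 followed at 1.25 (SE 0.15) and Uqcrfs1, the Rieske iron-sulphur protein, at 0.95 (SE 0.15). Uqcrc2 (0.57) and Uqcrb (0.44) did not pass. Cytochrome c itself, Cycs, did not pass either (0.43, SE 0.23): its C1ql2 values of 125, 207 and 265 CPM overlapped those of the other clusters.

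In complex IV, cytochrome c oxidase, 11 of 14 tested genes rose and 1 fell. Ndufa4, once assigned to complex I and now counted as a subunit of complex IV, had the smallest adjusted p of all members. It was at 3106, 2931 and 2787 CPM in C1ql2 cells, 1338, 1253 and 1133 in Calb2, 1319, 1304 and 1182 in Car4, and 638, 457 and 636 in Tnnt1 cells (1.64, SE 0.10, adjusted p = 9.1e-07, edgeR). The C1ql2 cluster was thus above all others, the Tnnt1 cluster below all others, and the Calb2 and Car4 clusters overlapped. Cox4i1 (1.28, SE 0.11) and Cox5a (1.15, SE 0.10), which sit close to the catalytic core, were next. Cox7a2l, which takes part in joining complexes III and IV into supercomplexes, rose by 1.44 (SE 0.16).

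In complex V, the ATP synthase, 11 of 14 genes rose. Atp5g3, a gene for the c subunit of the rotating ring, was at 1477, 1749 and 1787 CPM in C1ql2 cells, 1043, 1280 and 1096 in Calb2, 783, 919 and 976 in Car4 and 490, 624 and 581 in Tnnt1 cells (1.05, SE 0.10, adjusted p = 2.9e-05, edgeR). Atp5b, the catalytic beta subunit, rose by 1.15 (SE 0.12) and Atp5o, part of the stalk, by 1.33 (SE 0.15). Atp5k (0.63), Atp5e (0.59) and Atp5l (0.55) did not pass.

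The promoters of nuclear members are known to carry sites for ETS-family factors, for NRF1 and, in fewer cases, for oestrogen-related receptors. They were read because many members moved together. RefSeq (GRCm38.p6) held a promoter for 78 of the 95 nuclear members, 84 promoters in all. In the 250 bases before each start, on either strand, an ETS match (CCGGAAG) was found in 14 of 84 (16.7%) against 6.91% of all 32851 promoters, an NRF1-type match (GCGCATGC) in 10 of 84 (11.9%) against 2.26%, and an oestrogen-related receptor match (TCAAGGTCA) in 1 of 84 (1.19%) against 0.387%. Members that rose in both the C1ql2 cluster and the C1ql2 subregion of the spots described further on had 35 promoters, of which 5 (14.3%) held the ETS, 0 the NRF1-type and 1 (2.86%) the oestrogen-related receptor match. Among the 49 promoters of the other nuclear members the counts were 9 (18.4%), 10 (20.4%) and 0.  These counts describe letters only. Shown 5′ to 3′ on the strand of the gene (minus in all 4), with matches in capitals, are Uqcrh (chr4:116075071-116075320, an ETS match on the opposite strand that starts 10 bases before the gene's start), Atp5g3 (chr2:73911327-73911576, the one oestrogen-related receptor match, on the opposite strand; this start lies inside the span RefSeq gives for the gene), Cox6a1 (chr5:115348959-115349208, an ETS match on the opposite strand and NRF1-type matches on both strands that overlap each other but not the ETS match; it rose in the cells and did not pass in the spots) and Ndufa4 (chr6:11907451-11907700, which holds none of the 3 and had the smallest adjusted p of all members).
Uqcrh: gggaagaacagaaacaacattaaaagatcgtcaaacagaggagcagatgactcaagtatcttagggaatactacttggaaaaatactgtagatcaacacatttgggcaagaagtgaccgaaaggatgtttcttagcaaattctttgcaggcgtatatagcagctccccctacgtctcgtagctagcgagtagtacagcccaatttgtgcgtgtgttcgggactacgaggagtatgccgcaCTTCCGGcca
Atp5g3: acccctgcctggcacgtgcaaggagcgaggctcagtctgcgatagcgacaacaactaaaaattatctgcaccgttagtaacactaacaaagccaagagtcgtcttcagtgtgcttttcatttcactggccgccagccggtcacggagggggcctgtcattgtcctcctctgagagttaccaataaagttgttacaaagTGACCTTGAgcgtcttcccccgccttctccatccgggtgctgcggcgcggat
Cox6a1: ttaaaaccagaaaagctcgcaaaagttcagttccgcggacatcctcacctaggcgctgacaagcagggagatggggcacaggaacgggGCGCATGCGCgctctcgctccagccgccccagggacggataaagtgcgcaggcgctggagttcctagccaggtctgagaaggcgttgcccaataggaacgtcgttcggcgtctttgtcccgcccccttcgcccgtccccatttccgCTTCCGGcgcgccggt
Ndufa4: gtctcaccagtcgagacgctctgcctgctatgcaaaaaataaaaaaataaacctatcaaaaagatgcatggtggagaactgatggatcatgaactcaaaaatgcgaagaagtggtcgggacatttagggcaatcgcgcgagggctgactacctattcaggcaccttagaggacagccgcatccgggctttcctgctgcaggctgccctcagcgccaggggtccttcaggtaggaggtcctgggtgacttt

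The Tnnt1 cluster stood at the other end. Against the mean of the other clusters, 53 of 89 nuclear members fell, 0 rose and 36 did not pass (the difference was above 0 for 2 of the 89), where 2.91% of all genes fell and 3.13% rose. The median log2 difference of nuclear members was -0.83 against 0.12 for all genes. For 45 of 89 nuclear members each Tnnt1 value was below each value of the other clusters, against 2.94% of all genes and 0 of 9 mt- members. The comparisons of the C1ql2 and Tnnt1 clusters share their sums, since each enters the mean the other is set against, so their opposite signs are not independent. By complex, 19 of 36 subunits of complex I, 3 of 4 of complex II, 7 of 9 of complex III, 11 of 14 of complex IV, Cox7a2l, and 12 of 14 of complex V fell, and again 0 of 8 assembly factors. Cox5a fell by 1.46 (SE 0.12) from 754 to 1703 CPM in the other clusters to 332, 385 and 464 CPM in Tnnt1 cells, and Ndufa4 fell by 1.51 (SE 0.12), both with an adjusted p of 1.4e-05 (edgeR). Ndufb5 fell by 1.65 (SE 0.18), Uqcrh by 1.28 (SE 0.17), Sdhb by 1.21 (SE 0.19) and Atp5o by 1.38 (SE 0.17). Leaving out animal 1, 2 or 3 gave 75, 11 or 9 fallen members. It was 28 at the finer clustering and 35 among cells of overlapping depth, each more than 1.5 times below 53.

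The Calb2 and Car4 clusters lay between. Against the mean of the others, edgeR called 0 nuclear members in the Calb2 cluster (11 at an unadjusted p under 0.05, 2 by DESeq2) where 1.46% of all genes were called, and 0 in the Car4 cluster (8 unadjusted, 3 by DESeq2) where 1.26% were called. The log2 difference was above 0 for 62 of 89 in the Calb2 cluster and for 19 of 89 in the Car4 cluster. Since both extremes enter these means, the pairs of clusters are more direct. C1ql2 cells were higher than Tnnt1 cells in 65 of 89 nuclear members (6.03% of all genes), than Car4 cells in 41 (2.79%) and than Calb2 cells in 20 (1.2%), and Cox6a2 was lower than in the last 2. Calb2 cells were higher than Tnnt1 cells in 28 (1.8%), and Car4 cells were higher than Tnnt1 cells in 4 (0.243%), which were Cox5a, Ndufa4, Ndufb5 and Atp5g3. Calb2 and Car4 cells did not differ in any member by that test (10 of 89 at an unadjusted p under 0.05). Ndufa4 was higher in C1ql2 than in Calb2 cells by 1.32 (SE 0.14) and than in Car4 cells by 1.24 (SE 0.14), while Calb2 against Car4 gave -0.07 (SE 0.14).

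Among the mt- genes 9 could be tested in the cells. In the C1ql2 cluster edgeR called 0 of 9 (4 at an unadjusted p under 0.05, all with a negative difference), with a median of -0.05. The count was 3 with clusters made from all genes and 3 without the filter on low counts. mt-Cytb, the mitochondrial subunit of complex III and the mt- member with the most counts, was at 1657, 8093 and 7698 CPM in C1ql2 cells, 3641, 7454 and 7477 in Calb2, 4232, 9812 and 9041 in Car4 and 3992, 9519 and 8463 in Tnnt1 cells. Animal 1 was the lowest in every cluster, and the clusters overlapped (C1ql2 against the others -0.40, SE 0.17). mt-Nd1 was low in animal 1 as well, with 822, 3413 and 2524 CPM in C1ql2 cells (-0.05, SE 0.14). The other C1ql2 differences were -0.71 for mt-Nd2, -0.49 for mt-Co1, -0.37 for mt-Nd4, 0.26 for mt-Nd5, 0.27 for mt-Atp8, 0.04 for mt-Atp6 and -0.01 for mt-Nd6.

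The 1 mt- gene that passed anywhere in the cells was mt-Nd4, a core subunit of the proton-pumping arm of complex I. It was at 888, 1327 and 1076 CPM in Tnnt1 cells and 1020, 1105 and 897 in Car4 cells. In Calb2 cells it was at 551, 737 and 612 CPM and in C1ql2 cells at 556, 729 and 711, so that the first pair of clusters lay above the second in all animals. It rose by 0.55 (SE 0.12, adjusted p = 0.016, edgeR) in the Tnnt1 cluster and fell by 0.57 (SE 0.13, adjusted p = 0.042) in the Calb2 cluster. The Tnnt1 call was lost without animal 2 (adjusted p = 0.36), without animal 3 (0.21), with wells of at least 2000 genes (0.067), with clusters made from all genes (0.052) and among cells of overlapping depth (0.073). The Calb2 call was lost without animal 2 or 3, with 1 other random start, with wells of at least 2000 genes, at overlapping depth, with clusters made from all genes and without the animal block. Both mitochondrial ribosomal RNAs, which come from the same DNA, rose in the Tnnt1 cluster (mt-Rnr1 0.70, mt-Rnr2 0.69). Their summed share was above that of Car4 cells in animals 2 and 3 (3.27% and 2.37% against 2.08% and 1.77%). In animal 1 it was below (1.58% against 1.83%).

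Isoforms of complex IV departed from the common pattern. Cox6a1 and Cox6a2 encode alternative forms of 1 subunit, and the second is best known from heart and skeletal muscle. Cox6a1 was at 965, 1048 and 998 CPM in C1ql2 cells and rose there (0.98, SE 0.13). Cox6a2 was at 0, 5.60 and 4.31 CPM in C1ql2 cells, 93.9, 29.0 and 34.8 in Calb2, 38.6, 32.4 and 32.9 in Car4 and 38.2, 11.6 and 24.98 in Tnnt1 cells. It was the only nuclear member that fell in the C1ql2 cluster (-3.39, SE 0.86, adjusted p = 0.022, edgeR), and the 3 C1ql2 values lay below all others. In raw counts this rests on 15 counts in 5 of 43 C1ql2 cells, although these were the deepest cells, against 585 counts in 86 of 454 Car4 cells.

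Cox7a1, the muscle form of another subunit, went the other way. It was at 49.8, 56.05 and 21.9 CPM in C1ql2 cells, 27.5, 0 and 6.92 in Calb2, 11.1, 7.26 and 7.40 in Car4 and 2.63, 0 and 4.52 in Tnnt1 cells, with 1 Calb2 value above 1 C1ql2 value. It had counts in 20 of 43 C1ql2 cells and in 11 of 148 Calb2, 50 of 454 Car4 and 13 of 232 Tnnt1 cells, which were shallower (2.90, SE 0.83, adjusted p = 0.040, edgeR). Its ubiquitous partner Cox7a2, at 918 to 1193 CPM in C1ql2 cells, rose by 1.15 (SE 0.12). The Cox7a1 call was lost without animal 2 (adjusted p = 0.34), without animal 3 (0.15), among cells of overlapping depth (0.13) and with 1 other random start of the clustering (0.061). The Cox6a2 call was lost without animal 2 (0.13), without animal 3 (0.15) and with clusters made from all genes (0.064). Both genes moved the same way in the spots, where Cox7a1 passed the filter on low counts only through the C1ql2 sums.

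**Figure D3:**
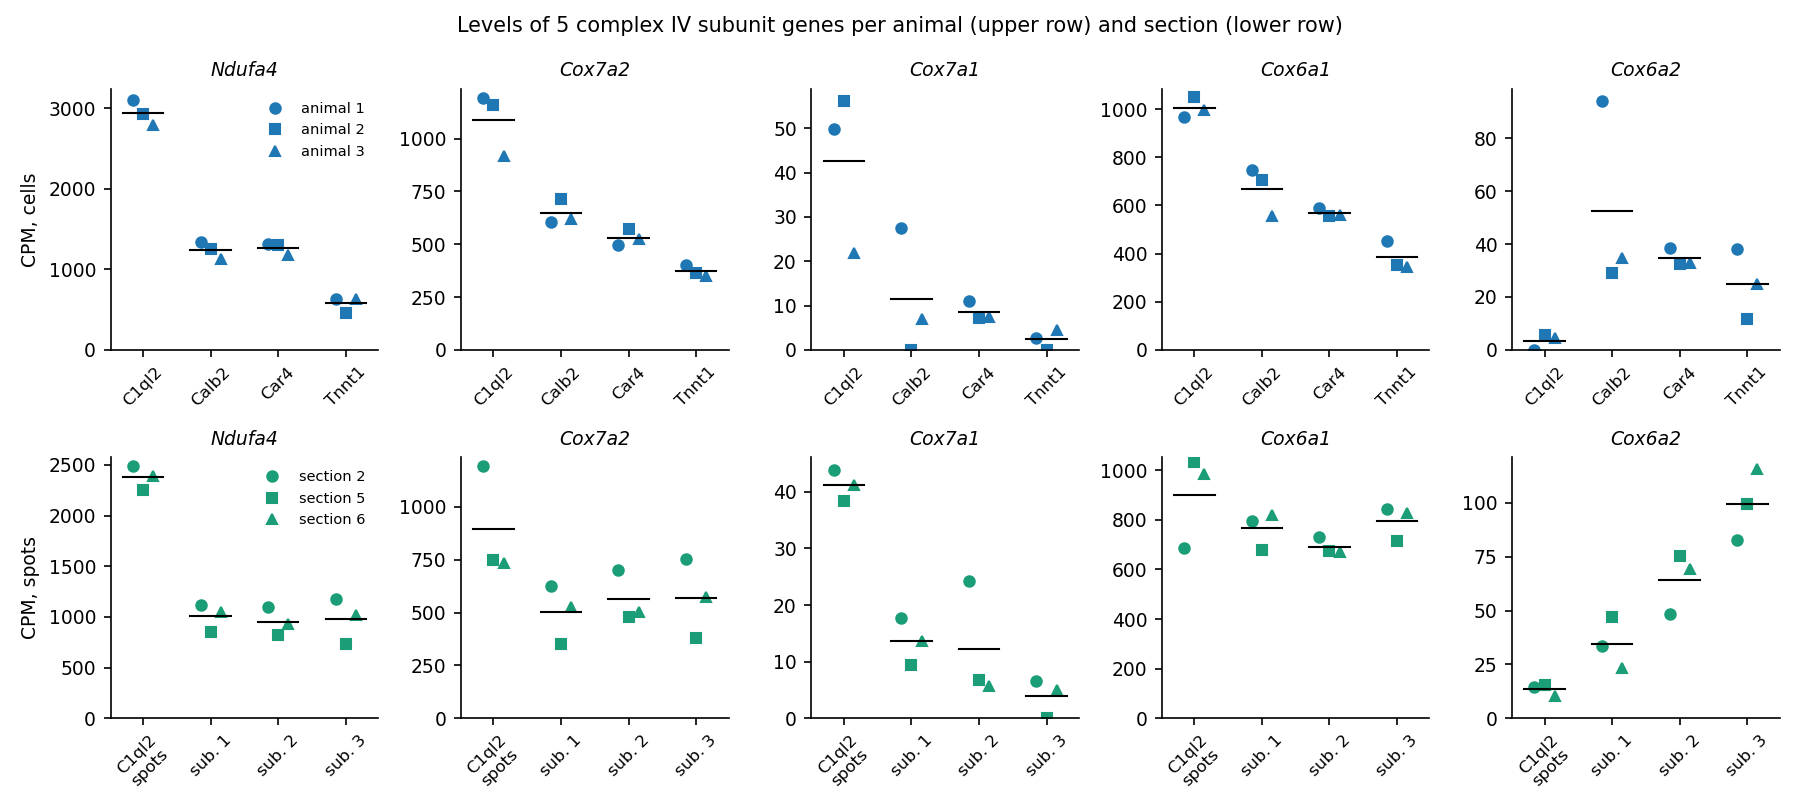
Level in CPM of Ndufa4, Cox7a2, Cox7a1, Cox6a1 and Cox6a2 in the 4 neuron clusters per animal (upper row) and in the C1ql2 subregion and subregions 1 to 3 per section (lower row). Points are animals or sections and lines are means (n = 3). Ndufa4 and Cox7a1 are highest and Cox6a2 is lowest at the left of each panel, with Cox6a2 between 82.7 and 116 CPM in subregion 3.

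The remaining isoforms gave little signal or little change in cells. Cox8a, the main Cox8 form, was at 1127, 1508 and 1510 CPM in C1ql2 cells and 1539, 1443 and 1409 in Calb2 cells and did not pass (0.32, SE 0.13). Cox8b had 0 counts in every cluster, which allows up to 0.726 CPM in the pooled C1ql2 cells (3 counts, counting error only). Cox4i2 had 3 counts in C1ql2 cells while its partner Cox4i1 was at 3385 to 4126 CPM, Cox6b2 had 0 and Ndufa4l2 2. Atp5g1, another gene for the c subunit, was at 266, 252 and 265 CPM in C1ql2 cells and 86.2, 101 and 97.4 in Tnnt1 cells (1.10, SE 0.18). Cox6c (1.29), Cox5b (0.98), Cox7b (0.97), Cox7c (0.98) and Cox6b1 (0.96) all rose in the C1ql2 cluster, and Cox7b2 did not pass (0.74).

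Lists of neighbouring pathways were read by the same test, beside the 5.2% of all genes that rose in the C1ql2 cluster and the 2.91% that fell in the Tnnt1 cluster. In the C1ql2 cluster 6 of 14 tricarboxylic acid cycle genes rose (Mdh2 0.99, Mdh1 0.90, Idh3a 1.06), 3 of 10 of pyruvate entry (Mpc2 1.00) and 10 of 20 of glycolysis. Aldoc, a glycolytic aldolase, rose by 3.64 (SE 0.28). Of mitochondrial carriers 6 of 18 rose, led by the adenine nucleotide carrier Slc25a4 (1.08, SE 0.10), and of antioxidant genes 3 of 13. The other lists had 14 of 78 mitochondrial ribosomal proteins, 5 of 22 import genes, 2 of 36 other complex assembly factors and 11 of 75 cytosolic ribosomal proteins risen, and 4 of 8 nuclear-retained RNAs fell. None of 20 regulators of biogenesis and mitochondrial transcription passed, with 1 at an unadjusted p under 0.05: Ppargc1a, a coactivator of these genes, was at 1.03 (SE 0.33, adjusted p = 0.062, edgeR). In the Tnnt1 cluster 4 of 14 tricarboxylic acid cycle, 2 of 10 pyruvate entry, 9 of 20 glycolysis, 4 of 18 carrier, 3 of 13 antioxidant, 8 of 78 mitochondrial ribosomal, 4 of 22 import, 3 of 36 assembly and 12 of 75 cytosolic ribosomal genes fell, while 6 of 8 nuclear-retained RNAs rose. Ppargc1a was at -1.20 there (SE 0.37, adjusted p = 0.072).

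The sections gave an independent set of libraries. Of 7827 spots, 657 formed a region led by thalamic glutamatergic markers (206, 199 and 252 in sections 2, 5 and 6), and these fell into subregions of which 4 had at least 5 spots in each section. One, with 44 spots (10, 17 and 17), carried the markers C1ql2, Chrm1, Slc17a7 and Serpinb7 and is called the C1ql2 subregion; subregions 1, 2 and 3 had 222, 181 and 115 spots. Haemoglobin genes led subregion 3, and their part in its values was not tested. A spot can hold several cells and parts of cells, so fewer cells of a type and less RNA per cell cannot be told apart. Oligodendrocyte markers summed to 3975 to 5972 CPM in the C1ql2 subregion, 9246 to 10873 in subregion 1, 3535 to 6567 in subregion 2 and 6780 to 7164 in subregion 3. The 10 thalamic glutamatergic markers summed to 1473 to 1727 CPM in the C1ql2 subregion and 2330 to 3739 in subregions 1 to 3, and the 7 cortical glutamatergic markers, Slc17a7 among them, to 703 to 783 against 139 to 350 CPM. The median spot had 11068 counts in the C1ql2 subregion and 5598, 5794 and 7210 in the others, and the part of depth and of these markers was not tested.

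Nuclear members held 4.46%, 4.17% and 4.29% of counts in the C1ql2 subregion of sections 2, 5 and 6. They held 3.15%, 2.59% and 3.03% in subregion 1, 3.15%, 2.72% and 2.95% in subregion 2, and 3.58%, 2.64% and 3.09% in subregion 3. The C1ql2 subregion was the highest in each section without overlap. The mt- members held 9.67%, 10.5% and 7.50% in the C1ql2 subregion, 10.3%, 11.3% and 9.17% in subregion 1, 9.88%, 9.95% and 7.87% in subregion 2, and 12.4%, 10.5% and 8.82% in subregion 3, and here all groups overlapped. These mt- shares are several times those of the cells, and the 2 tables differ in which mt- genes carry counts, so levels are not compared between them.

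Against the mean of the other subregions, 46 of 86 nuclear members rose in the C1ql2 subregion and 1 fell, where 6.27% of 7321 genes rose and 4.93% fell (edgeR's quasi-likelihood test, section as block). The difference was above 0 for 84 of 86, with a median of 0.41 against 0.00 for all genes, and for 35 of 86 each value lay above each value of the other subregions (4.3% of all genes, 0 of 13 mt- members). Complex I had 14 of 36 risen, complex II 2 of 4, complex III 6 of 9, complex IV 10 of 13, complex V 12 of 15, and Cycs and Cox7a2l rose too (0.53 and 0.62). Ndufa4 was at 2488, 2252 and 2394 CPM against 736 to 1180 CPM in subregions 1 to 3 (1.29, SE 0.09, adjusted p = 4.8e-22, edgeR). Cox5a was at 827, 644 and 649 CPM against 259 to 492 (0.89, SE 0.12), and Atp5g3 at 1039, 988 and 1246 against 509 to 683 (0.84, SE 0.10). Ndufc1 of complex I rose by 0.92 (SE 0.12), Sdha by 0.67 (SE 0.12) and Uqcrh by 0.65 (SE 0.11). Cox8a again showed no change that passed (0.07, SE 0.10), and Cox6a1 did not pass here (0.27, SE 0.11).

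The same isoforms stood apart in the spots. Cox6a2 was the 1 nuclear member that fell: it was at 14.6, 15.3 and 10.3 CPM in the C1ql2 subregion, 33.6, 47.2 and 23.2 in subregion 1, 48.3, 75.1 and 69.1 in subregion 2, and 82.7, 99.4 and 116 in subregion 3 (-2.20, SE 0.46, adjusted p = 0.00027, edgeR). Its values climbed without overlap from the C1ql2 subregion to subregions 1, 2 and 3, and it passed as higher in subregion 2 (0.84) and in subregion 3 (1.77). The C1ql2 values rest on 6 counts in 44 spots. Cox7a1 was at 43.9, 38.3 and 41.2 CPM against 0 to 24.2 CPM elsewhere (2.21, SE 0.53), from 19 counts. It counts among the risen members, but it passed the filter on low counts only through the C1ql2 sums. Its call is therefore not read as support, and its values are a description.

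In the mt- genes of the C1ql2 subregion 0 of 13 rose and 4 fell. mt-Atp8, a small subunit of complex V, was at 205, 237 and 92.7 CPM against 227 to 647 CPM in subregions 1 to 3 (-1.03, SE 0.18, adjusted p = 8.3e-06, edgeR). mt-Nd4l (-0.84, SE 0.18), mt-Nd5 (-0.39, SE 0.11) and mt-Nd2 (-0.33, SE 0.08) fell too. The mt-Atp8 values overlapped those of the other subregions. The last 3 calls were lost without section 6 (adjusted p 0.053, 0.072 and 0.10, edgeR) and without the section block (0.051, 0.23 and 0.21), and that of mt-Nd5 also without section 5 (0.074). The other 9 differences lay between -0.53 for mt-Nd6 and 0.05 for mt-Cytb and included mt-Co1 (-0.14), mt-Co2 (-0.10), mt-Co3 (-0.04), mt-Nd1 (-0.13), mt-Nd3 (-0.17), mt-Nd4 (-0.09) and mt-Atp6 (-0.08).

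In the other subregions fewer members moved. In subregion 1, 15 of 86 nuclear members fell (2.98% of all genes), from Ndufb6 at -0.67 to Uqcr10 at -0.35. In subregion 2, 14 fell (3.37% of all genes), among them Ndufa4 (-0.53) and Uqcrc1 (-0.45). In subregion 3, Cox6a2 rose, Ndufa4 fell (-0.38) and mt-Atp8 rose (0.68), where 1.42% of all genes were called in either direction. Each of these means includes the C1ql2 subregion. The counts of nuclear members called in subregions 1 and 2, 15 in each, were 2 in each without the section block and 4 to 11 and 3 to 13 with 1 section left out (lowest without section 5 in both, and also without section 6 in subregion 2), and subregion 2 gave 7 with DESeq2 and 5 without the filter.

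Cells and spots share no library, and their C1ql2 groups were compared gene by gene. Of 85 nuclear members tested in both, 84 (98.8%) had the same sign, against 64.4% of 6956 genes. There were 36 that rose in both, which is 64.3% of the 56 risen in cells and 78.3% of the 46 risen in spots, and Cox6a2 fell in both. Over all 6956 genes, 228 rose in both, which is 42.4% of the 538 risen in cells and 51.9% of the 439 risen in spots. Cox7a1 is among the 36, although it passed the filter in the spots only through the C1ql2 sums. Across the 85 nuclear members Pearson's r was 0.79 and Spearman's rho 0.47, and without Cox6a2 and Cox7a1 r was 0.45. Genes are not independent replicates. Of the 9 mt- genes tested in both, 5 had the same sign. Of all genes tested, 6.27% rose in the C1ql2 subregion. There 6 of 15 tricarboxylic acid cycle genes rose (Idh3a 0.94, Mdh1 0.73), 9 of 19 of glycolysis, 2 of 9 of pyruvate entry and 5 of 17 carriers (Slc25a5 1.06). So did 4 of 13 antioxidant, 6 of 75 mitochondrial ribosomal and 3 of 19 import genes, and 0 of 9 regulators of biogenesis rose (1 at an unadjusted p under 0.05). Of cytosolic ribosomal protein genes 0 of 77 rose (4 at an unadjusted p under 0.05).

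**Figure D4:**
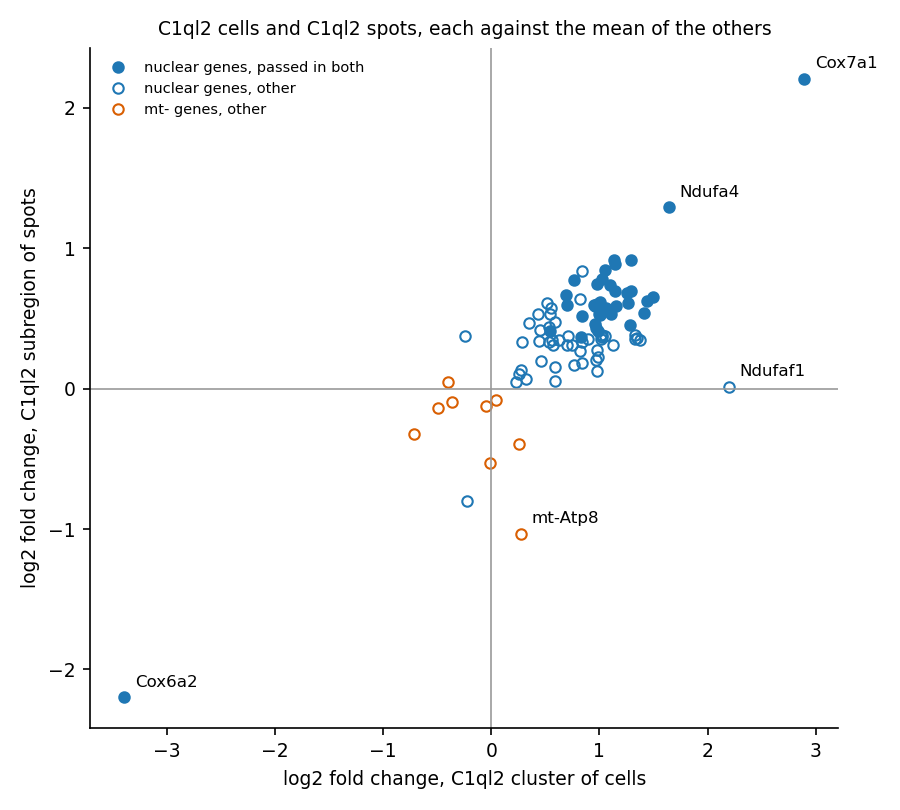
Log2 difference of each member tested in both assays in the C1ql2 cluster of cells (x axis) and the C1ql2 subregion of spots (y axis), each against the mean of the others, with nuclear genes in blue and mt- genes in orange and filled points for genes that passed in both. Nuclear genes lie in the upper right (84 of 85 with the same sign, Cox6a2 at the lower left), and mt- genes lie near or below 0 on the y axis.

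The thalamic region as a whole was not rich in these transcripts. Set against the mean of 10 other regions of the sections, 35 of 91 nuclear members fell and 3 rose there, where 14.4% of 12957 genes fell and 17.2% rose. The median difference was -0.14, and 68 of 77 cytosolic ribosomal protein genes fell in the same comparison. The 3 that rose were Cox6a2 (1.65, SE 0.14, adjusted p = 4.7e-15, edgeR), Ndufa10 (0.51, SE 0.07) and Sdha (0.25, SE 0.06). Cox6a2 was at 56.8, 57.1 and 61.6 CPM in thalamic spots of sections 2, 5 and 6, higher than in every other region but region 10. Among those that fell were Uqcr11 (-0.49, SE 0.06), Ndufb11 (-0.42, SE 0.07), Atp5j2 (-0.42, SE 0.07), Cox6c (-0.34, SE 0.07) and the assembly factor Ndufaf2 (-0.83, SE 0.13). The count of fallen nuclear members was 22 without section 5. Of 13 mt- members 9 fell, by 0.23 to 0.32, but the count was 2 without section 2, 1 without section 6 and 0 without the section block.

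Other regions marked the range of the family over the sections. Region 10 (217 spots), whose GABA neuron and reticular thalamic markers summed to 7661 to 7949 and 6257 to 6575 CPM, was taken up after its values were seen and is described without a test. Its oligodendrocyte markers summed to 14161 to 15207 CPM. Its nuclear share was the highest, 4.49%, 4.10% and 4.56% in sections 2, 5 and 6, and 84 of 91 nuclear members lay above the mean of the other regions with a median log2 difference of 0.41. That count is not set beside the share of all genes above the mean. Cox6a2 was at 89.2, 143 and 72.5 CPM there and Cox7b at 1273, 989 and 1202 CPM. The lowest nuclear share was in region 6, with 2.84%, 2.29% and 2.74%. Oligodendrocyte markers summed to 44917 to 64640 CPM in region 6, and its median spot had 3838 counts, the fewest of all regions. The part of depth was not tested. Region 11, led by choroid plexus markers such as Ttr, had Cox8b at 187, 109 and 127 CPM against 3.95, 1.02 and 1.15 CPM in thalamic spots, and Cox6b2 at 96.7, 96.7 and 105 CPM against 4.94, 3.06 and 5.18 CPM. Cox7a1 was at 58.5, 60.5 and 80.5 CPM there against 13.8, 11.2 and 12.1 CPM in all thalamic spots, and Atp5g1 at 768, 682 and 882 CPM against 333, 325 and 374 CPM. The mt- share was highest in region 9, led by Ptgds and Mgp, with 15.4%, 17.2% and 12.4%, whose nuclear share of 3.59%, 3.21% and 3.26% was in the middle of the range.

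**Figure D5:**
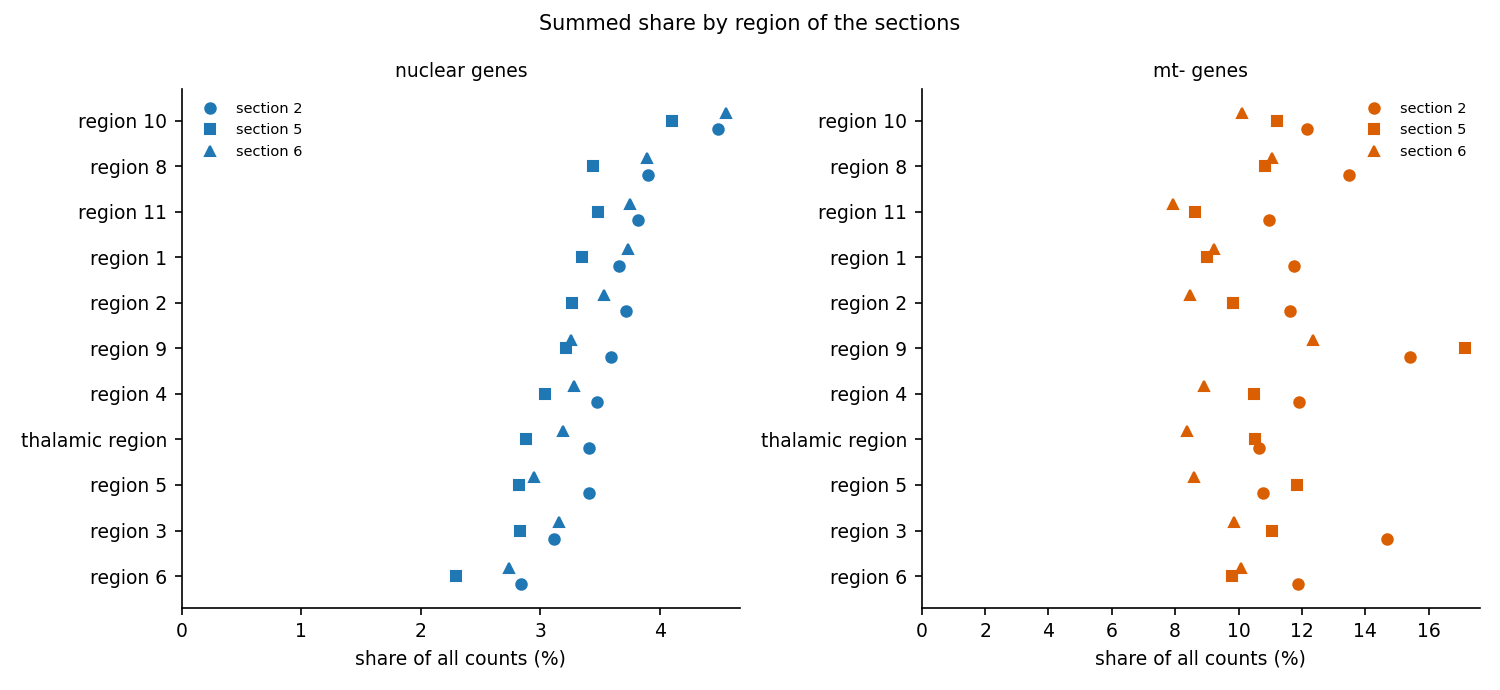
Share of all counts (%) held by nuclear (left) and mt- members (right) in 11 regions of the sections, ordered by the mean nuclear share, with 1 point per section. Region 10 is highest for nuclear members (4.10% to 4.56%) and region 6 lowest (2.29% to 2.84%), and the order of the right panel differs, with region 9 highest (12.4% to 17.2%).

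With 1 antATN section, the antATN and postATN sections give values and no test. In thalamic spots nuclear members held 3.41% of counts in postATN section 2 (95% Poisson interval 3.38% to 3.43%) and 3.19% in postATN section 6 (3.16% to 3.21%), against 2.88% in the antATN section (2.84% to 2.91%). The intervals cover counting error only. Of 91 nuclear members, 70 (76.9%) were lower in the antATN section than in both postATN sections, against 38.3% of all genes. The antATN section was also the shallowest, and its nuclear share was the lowest of the 3 in 11 of 11 regions. The lower share was thus not particular to thalamic spots, and antATN position, section and depth cannot be told apart. The mt- members held 10.6% and 8.39% in the postATN sections and 10.5% in the antATN section, which lay between them.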

How the data were processed

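Counts in both deposited tables are whole numbers, which the authors gave per gene and well or spot without normalization. Animal and section come from the deposited records (unit other), which the authors supplied per well and per spot. Seurat, Space Ranger and the builds NCBIM37 and mm10 are named, without roles, per the submitters' processing notes. The aligner, the counting of reads or molecules and doublet treatment are not given in the sources used here, and no doublet caller was run. Because 14 labelled cell samples could not be matched by name to plates, cells were grouped by recorded animal. Wells with at least 1000 genes were kept if their source was not recorded under another animal (904 of 1216 wells with a cell). That rule left out 8 wells with enough genes. Cells and spots were clustered with scanpy 1.11.5 (2000 variable genes, 30 components, 15 neighbours, Leiden resolution 0.5), leaving out members and other mt- symbols. Clusters were named by fixed marker lists, and C1ql2 and the others are names of expression groups.

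For tests, the counts of all cells in a cluster were added up within an animal, and those of all spots in a region within a section (at least 5 cells or spots). edgeR 4.0.16 (R 4.3.3; TMM, filterByExpr, quasi-likelihood test, Benjamini-Hochberg over all genes, threshold 0.05) set each group against the mean of the other groups, each weighted equally, with animal or section as block. The block is in the fit because same-numbered sums come from the same animal or section: their residuals correlated at a median of 0.07 (cells), 0.08 (regions) and 0.08 (subregions), against -0.05, -0.05 and -0.04 for different numbers. Cells of 1 animal are not replicates, and p-values for sections measure the spread between sections, which may be technical. On simulated data with 11519 genes the C1ql2 cell comparison recovered 13.7% of genes changed by log2 1 and 34.0% of those changed by log2 2. The subregion comparison (7018 genes) recovered 36.4% and 91.8%. The changed genes were drawn at random from all genes that passed the filter, whatever their level. These rates therefore do not describe the members as such. Named genes are the 13 mt- members, in the comparisons of C1ql2, Tnnt1 and thalamic groups the 3 of each complex with the smallest adjusted p, members that passed against the majority, up to 10 that did not pass, isoform families, and up to 4 genes per other list; others were named after their values were seen. Members and lists were chosen with earlier results of these data known. Alternatives were DESeq2 1.42.0, no filter, no block, other clusterings, depths and gene minimums, and each animal or section left out.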

Additional observations from a re-analysis of the deposited data

Results flagged for a closer look

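The 56 wells recorded as holding only spike-in RNA together contained 2491 counts of nuclear members, a signal in wells outside the comparisons, against 7 counts in the 16 blank wells. The median spike-in well held 1.5 such counts and the highest 703. The 4 spike-in wells with at least 1000 counts in all were on 1 plate. On that plate the median spike-in well held 17240.5 counts and the median control-RNA well 141.5, the reverse of the other plates with kept cells, so whether its wells hold what their record says is uncertain. Without that plate, 54 nuclear members rose in the C1ql2 cluster and 48 fell in the Tnnt1 cluster.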

How the results depend on the processing

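No direction reversed under any alternative run. In cells, the 53 nuclear members that fell in the Tnnt1 cluster became 35 at overlapping depth and 28 at resolution 1.0, and 9 to 75 when 1 animal was left out; the 56 risen in the C1ql2 cluster became 28 to 73. For mt- members, the Tnnt1 count of 1 became 0 with at least 2000 genes per well, at overlapping depth and with clusters made from all genes, 2 without the filter, 3 when thinned to 5000 counts, and 0 to 3 when 1 animal was left out. The C1ql2 count of 0 became 3 with clusters made from all genes and 3 without the filter (0 to 1 when 1 animal was left out). The Calb2 count of 1 became 2 with DESeq2, at resolution 1.0 and when thinned, 4 without the filter, 0 with another random start, at least 2000 genes, overlapping depth or clusters from all genes (both starts), and 0 to 7 when 1 animal was left out. The Car4 count of 0 became 3 without the filter (0 to 1). The 0 nuclear calls became 2 (DESeq2) and 1 (thinned) in Calb2 (0 to 2) and 3 (DESeq2) in Car4 (0 to 1). In spots, leaving out 1 section gave 22 to 27 for the 35 thalamic nuclear members that fell and 1 to 9 for the 9 mt- members (4 with another random start). It gave 1 to 4 for the 4 mt- members of the C1ql2 subregion, 31 to 42 for its 46 nuclear members, 4 to 11 for the 15 of subregion 1, 3 to 13 for the 15 of subregion 2 (7 with DESeq2, 5 without the filter) and 1 to 2 for the 2 of subregion 3. The cause was not tested.

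Without the replicate block (no animal or section term) the counts were 0 for Calb2 mt- members, 1 for mt- members of the C1ql2 subregion, 2, 2 and 1 for nuclear members of subregions 1, 2 and 3, and 23 nuclear and 0 mt- members for the thalamic region; the other counts of calls stayed within 1.5 times. The median nuclear share per cell, taken in each animal and averaged over the 3 animals, was 4.93% (C1ql2), 3.16% (Calb2), 2.52% (Car4) and 1.58% (Tnnt1). Without mt- symbols in the total, the Car4 share was 2.99% and the thalamic spots held 3.81%, 3.21% and 3.48% in sections 2, 5 and 6. Fewer cells in the C1ql2 cluster and low counts of Cox6a2 and Cox7a1 limit those values.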
